A study of Mus musculus with 116 samples.

Results

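In 77 of 40202 genes, RNA of the C10 line was seen in every library made from 10 cells and in none made from 1 cell. These genes were chosen by 3 conditions on the counts: 0 counts in all 8 libraries of 1 cell, at least 1 count in all 6 libraries of 10 cells, and a mean of at least 5 CPM (counts per 1000000 counts of a library) over the libraries of 10 cells. C10 is a mouse line labelled as alveolar type II epithelium, the surfactant-making cells of the lung, and SVEC is a mouse endothelial line. Both were grown under standard culture with no treatment. Lysates were divided with nanoSPLITS, a nanodroplet method that sends 1 portion of a cell's lysate to RNA sequencing and the rest to protein measurement, and full-length cDNA was sequenced. The input series held C10 libraries made from 1 cell (8 libraries), 3 cells (6) or 10 cells (6), and a second series held single cells of C10 (46 libraries used of 48) and SVEC (48 libraries). The labels name no separate cultures, so p-values measure only the spread between these libraries, which may be technical. They name no sequencing batch either, so a difference between the input series and the other single cells and any batch cannot be told apart.

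The zeros and the level in 10 cells define the set and are given as description only. Detection in the C10 single cells, the 3-cell libraries and SVEC did not enter the choice. As the yardstick, the 6749 genes that met the same conditions in 10 cells but had a count in at least 1 library of 1 cell are called seen genes below.

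Messenger RNA of a mammalian gene is often made in bursts, so at a given moment a transcript can be abundant in some cells of a population and missing in others. A pool of several cells averages over this. In a single-cell library a transcript can also be missing because it went with the other portion of the divided lysate, or because it was not copied into cDNA. A zero in the table looks the same in each case, and these data hold no second RNA library of the same cell, so the cases cannot be told apart for any one cell. What could be measured was how often, and at what level, the genes appeared in other single cells of the line.

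Libraries of 1 cell held 430798 to 15385625 counts, with a median of 1.01571e+07, and those of C10 single cells 83188 to 5911755 counts, with a median of 1.8817e+06. The series in which the genes were unseen was thus the deeper one. Replicate 1 of the 1-cell libraries stood apart, with 538 genes found and 64.6% of counts on mitochondrial genes. Without it the same conditions chose the same 77 genes. The label of the line was checked against its markers: Sftpa1, Sftpb, Sftpc and Sftpd, which encode surfactant proteins, were at 0 in all C10 single cells and all 10-cell libraries, as was Slc34a2. The other 4 of the 9 listed alveolar type II genes were found in C10 cells: Etv5 in 24 of 46, Abca3 in 14 at a mean of 12.4 CPM, Lamp3 in 10 and Napsa in 2. Of 5 epithelial genes 4 were found in C10 cells, led by the cadherin Cdh1 in 24 at a mean of 1.01 CPM, and Krt8 was at 0. Of 8 endothelial genes, Kdr, Tie1, Vwf and Emcn were at 0 in the single cells of both lines. Flt1 was found in 8 of 48 SVEC cells at a mean of 11.4 CPM and in 13 C10 cells at 0.592 CPM, Pecam1 in 5 SVEC and 12 C10 cells, Tek in 3 and 12, and Cdh5 in 1 of each line.

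Every one of the 77 genes was found in C10 single cells. The number of cells with a count ranged from 3 to 35 of 46, with a median of 16 (34.8%). At least 50% of the cells held a count for 11 of the genes, under 25% of the cells did for 20 genes, and no gene of the set reached 90%. Among seen genes the median was 33 of 46 cells (71.7%), and 5057 of 6749 genes (74.9%) were found in at least 50% of the cells. By itself, a count in 0 of 8 libraries allows a true share of up to 36.9% of cells (exact binomial 95% limit), and 36 of the 77 genes were found in a larger share of the C10 single cells. For 11 of them the lower exact 95% limit in the C10 single cells was also above 36.9%. The zeros were the reason these genes were chosen, out of 6826 that met the conditions in 10 cells, so this is a description and no test of a difference between the series.

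**Figure D1:**
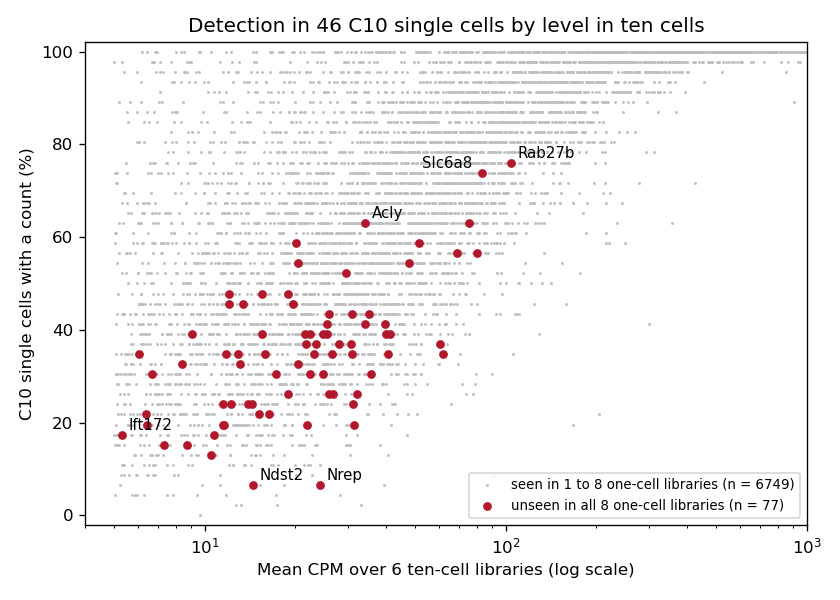
Each point is a gene, placed by its mean CPM over the 6 libraries of 10 cells (log scale) and by the percent of 46 C10 single cells with a count. The 77 genes unseen in the 8 libraries of 1 cell (red) lie between 6.52% and 76.1%, mostly in the lower part of the cloud of 6749 seen genes (grey, of which 112 above 1000 CPM are not drawn).

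The share of cells followed the level in 10 cells, and at each level the median of the set was lower than that of seen genes as a whole. In the band from 5 to 10 CPM, the 9 genes of the set were found in a median of 10 C10 cells, against 19 for 660 seen genes. From 10 to 20 CPM the medians were 13 cells for 24 genes and 21 cells for 992 seen genes. From 20 to 50 CPM they were 17 cells for 36 genes and 27 cells for 1920 seen genes, and at 50 CPM or more they were 26.5 cells for 8 genes and 41 cells for 3177 seen genes. Seen genes that had a count in only 1 of the 8 libraries of 1 cell were nearer to the set. Their medians in the same bands were 9, 14, 19 and 27 cells, for 33, 68, 118 and 38 genes.

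Ordered by the number of 1-cell libraries with a count, detection in the other series was higher at each step. The median share of C10 single cells was 34.8% for the 77 genes with 0 libraries, 39.1% for 257 genes with 1 library, 43.5% for 509 genes with 2, 52.2% for 740 genes with 3 and 63.0% for 856 genes with 4. It was 95.7% for the 271 genes found in all 8. The 77 genes formed the lowest step, with a quartile range of 23.9% to 43.5% that overlapped the 23.9% to 52.2% of the next step. The median level in 10 cells also differed along these steps, at 21.8 CPM for the set and 23.6 CPM for genes found in 1 library, against 51.7 CPM for those found in all 8.

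**Figure D2:**
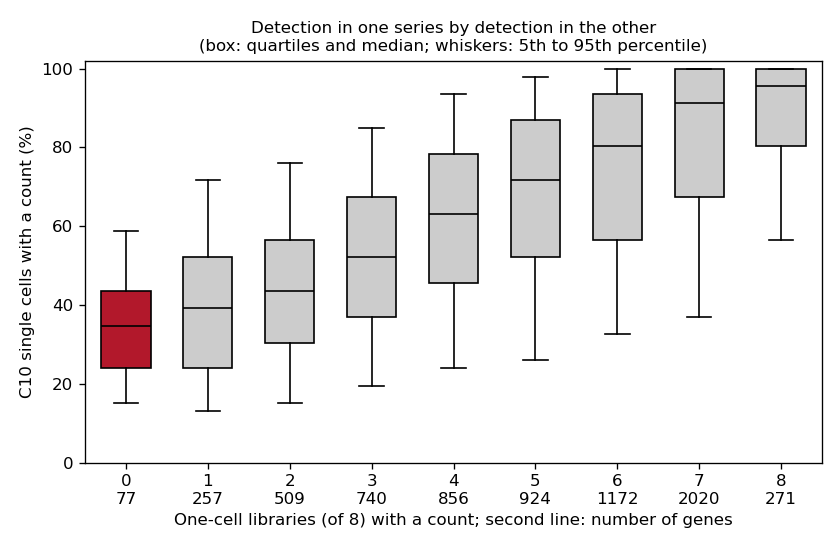
Percent of 46 C10 single cells with a count (vertical axis) for genes grouped by how many of the 8 libraries of 1 cell held a count (horizontal axis, with the number of genes). Boxes give quartiles and medians and whiskers the 5th to 95th percentile. The median climbs from 34.8% for the 77 unseen genes (red) to 95.7%.

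The summed level of the set was similar in C10 single cells and in pools, and it came from fewer genes per single-cell library. The 77 genes together took 1995 ± 633 CPM in C10 single cells (SD, n = 46), 1806 ± 413 CPM in 3-cell libraries (SD, n = 6) and 2026 ± 270 CPM in 10-cell libraries (SD, n = 6). These means differed by less than the SD of each group. In a pool, fewer cells that express a gene and less of its RNA per cell cannot be told apart. A C10 single cell held 7 to 45 of the 77 genes, with a median of 27, a 3-cell library 33 to 55 and a 10-cell library, by the choice, all 77. In each of the 46 C10 cells the percent found was lower for the set than for seen genes. Replicate 1 of the C10 cells, with 3505074 counts and 9355 genes, held the most (45), and replicate 23, with 435055 counts and 3271 genes, the fewest (7).

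The same order held at equal depth, although the choice of genes still favours the 10-cell libraries. When every library was thinned at random to 400000 counts, the median was 25 genes in 43 C10 single cells, 34 in 3-cell libraries and 68 in 10-cell libraries. The 3 shallower C10 libraries were left out of this comparison. Seen genes thinned the same way had this order too, with medians of 63.5% in C10 single cells, 77.7% in 3-cell and 92.8% in 10-cell libraries. In the 1-cell libraries, where the 77 genes remained at 0, the median of seen genes was 52.9%.

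**Figure D3:**
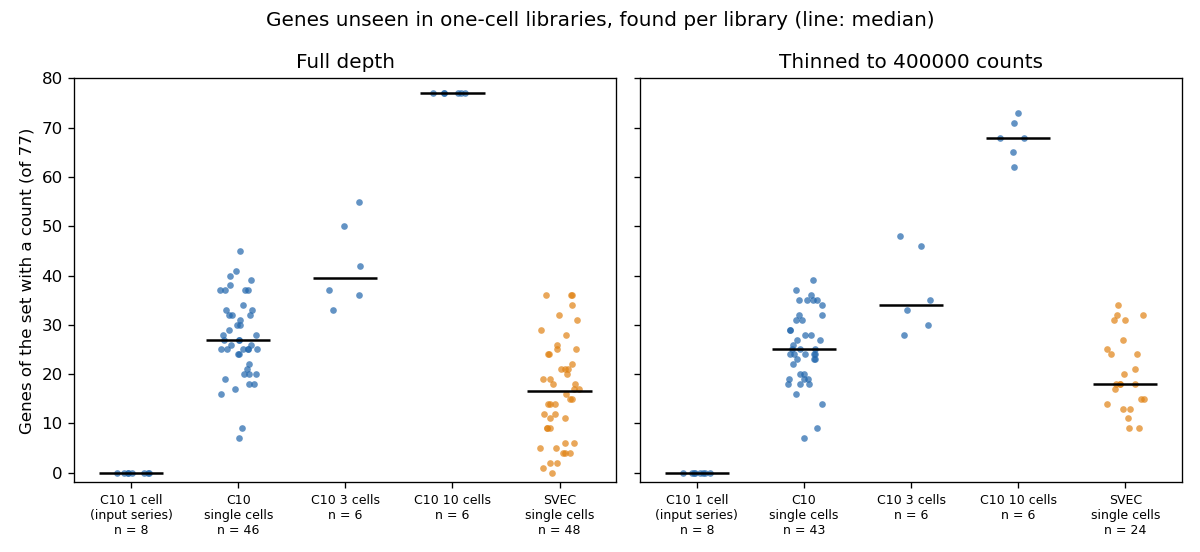
Number of the 77 genes with a count in each library (points) at full depth and after thinning to 400000 counts, with the median of each group as a line. C10 single cells sit between 7 and 45 at full depth, 3-cell libraries between 33 and 55, and the 8 libraries of 1 cell at 0 by the choice of genes.

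Gene by gene, the mean over C10 single cells, zeros included, was near the mean over 10-cell libraries. The median ratio of these means was 0.906 for the set and 0.981 for seen genes. Within 2-fold lay 53 of the 77 genes (68.8%), a smaller share than the 78.6% of seen genes. Where a gene was found, its level was usually higher than in the pools. The median CPM over cells with a count exceeded the 10-cell mean for 60 of 77 genes (77.9%), against 49.7% of seen genes. The median ratio was 1.67, against 0.994 for seen genes. The set was found in fewer cells than seen genes, with means near those of the pools in both. This contrast thus partly restates the lower detection and is no separate trait. The 1261 nonzero values of the set in C10 single cells had a median of 77 counts, and 81.4% of them reached 10 counts. For seen genes these were 129 counts and 82.1%. A different measure is the lowest count of a gene over the 10-cell libraries, which the choice sets to at least 1. It was under 10 for 26 of the 77 genes (33.8%), against 19.8% of seen genes. It was a single count for 14 (18.2%), against 6.05% of seen genes.

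Most of the 8 genes with the highest level in 10 cells were also among those found most often. The exceptions were Gdap2, at a 10-cell mean of 61.6 CPM and found in 16 of 46 C10 cells, and Slc35b3, at 60.3 CPM and found in 17. Rab27b, a small GTPase that guides secretory vesicles to the plasma membrane, stood at 25.0 CPM in its lowest, 90.4 CPM in its median and 230 CPM in its highest 10-cell library. In C10 single cells it was found in 35 of 46 (exact 95% interval 61.2% to 87.4%), with a median over all cells of 90.01 CPM and a highest value of 1024 CPM. Its C10 mean of 170 ± 212 CPM (SD, n = 46) was above its 10-cell mean of 104 ± 67.9 CPM (SD, n = 6), by less than the spread of the cells. Slc6a8, the creatine transporter, had a lowest value of 4.36, a median of 57.4 and a highest of 188 CPM in the 10-cell libraries. It was found in 34 of 46 C10 cells at a median over all cells of 29.6 CPM and up to 204 CPM. Tmem43, a protein of the inner nuclear membrane, stood at 30.4, 78.4 and 116 CPM (lowest, median, highest) in 10-cell libraries and was found in 26 of 46 C10 cells. Where found, its median was 127 CPM, and 20 of the cells had no count. Rab27b overlaps Gm41770 and Slc6a8 overlaps Gm32261 in the RefSeq annotation, and whether the counts used strand is not given in the sources used here, so reads of such pairs are uncertain.

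**Figure D4:**
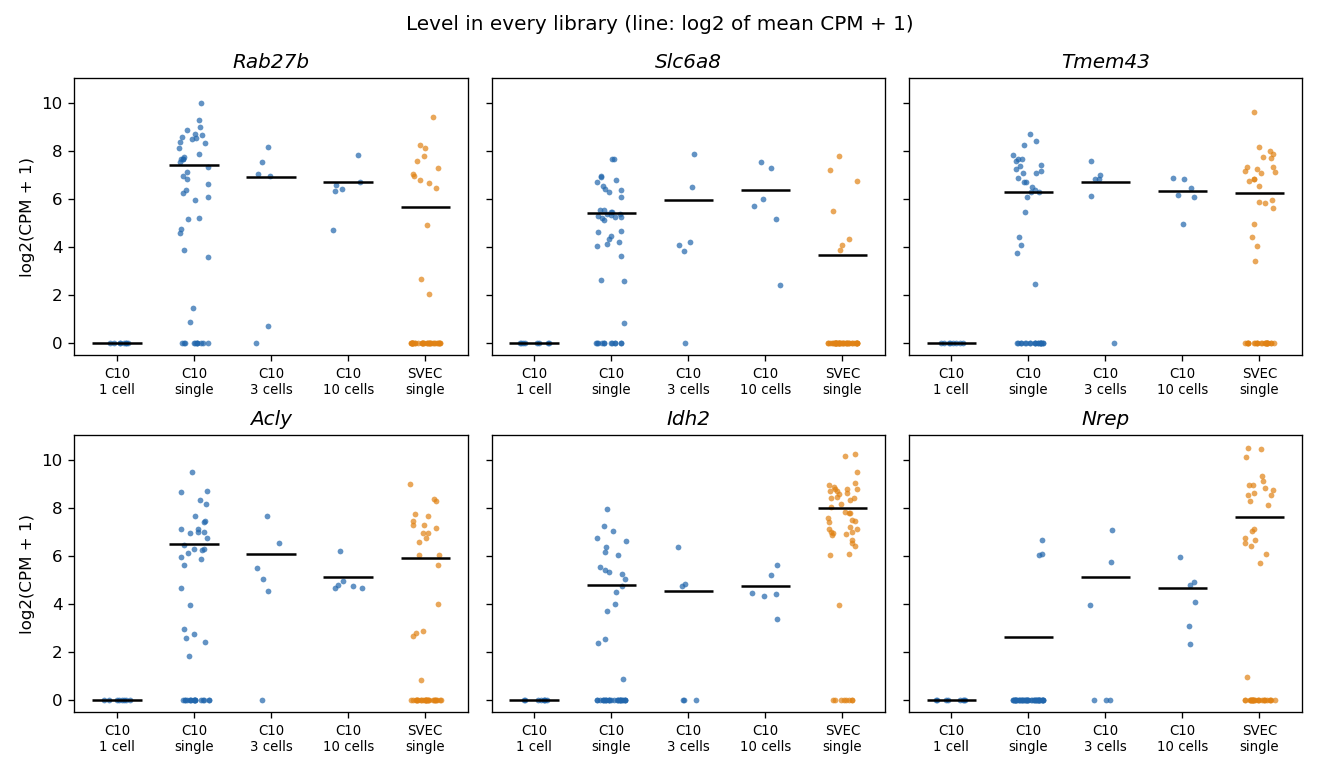
log2(CPM + 1) of 6 genes of the set in every library (points) of the 5 groups, with the log2 of the mean CPM + 1 of each group as a line. C10 single cells hold both zeros and values that reach above the 10-cell libraries for all 6 genes; for Idh2, 40 of 48 SVEC cells have a count, and for Nrep 23 do.

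Among the other genes of membrane transport, Slc35b3 carries the sulfate donor into the Golgi, and it was found in 17 of 46 C10 cells at a median of 84.9 CPM where found, against a 10-cell mean of 60.3 ± 27.0 CPM (SD, n = 6). Mrs2, a magnesium channel of mitochondria, was found in 21 cells. Slc23a2, a vitamin C transporter, was found in 9 cells and rested on 1 count in its lowest 10-cell library. In membrane traffic and autophagy, Arl4c, a small GTPase of the ARF family, was found in 27 cells and its C10 mean of 47.4 CPM was above its 10-cell mean of 20.1 CPM. Atg7, which activates the ubiquitin-like proteins of autophagy, was found in 25 C10 cells and in all 6 libraries of 3 cells, although 1 of the 10-cell libraries held a single count (0.0740 CPM). Tbc1d10a, a Rab GTPase-activating protein, was found in 18 cells and Atg4d, a protease that processes Atg8 proteins, in 9. The groups by role used here were formed after the values were seen, and they only order the genes.

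The 9 signalling genes were found in 14 to 27 C10 cells. Mapk6, the atypical MAP kinase ERK3, led them with 27 cells and a C10 mean of 65.1 ± 106 CPM (SD, n = 46), against 51.4 ± 25.0 CPM in 10-cell libraries (SD, n = 6). Tlr4, the receptor for bacterial lipopolysaccharide, was found in 18 cells at a median of 66.0 CPM where found. Braf, a kinase upstream of ERK, was found in 18 cells, and Spred1, which restrains Ras and Raf signalling, in 19. Of the genes that act on NF-kappaB, Nfkbie was found in 19 cells, Bcl3 in 17 and Azi2 in 16. Npy1r, a receptor for neuropeptide Y, was found in 17 C10 cells and 1 SVEC cell. One of its 10-cell libraries held 109 CPM, while the median of the 6 was 13.5 CPM, so a single library made up most of its pooled level. The sum over 10-cell libraries came mostly (over 50%) from 1 library for 9 of the 77 genes, or 11.7%, close to the 9.26% of seen genes.

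The 6 metabolic genes ranged from 12 to 29 cells. Acly, which makes cytosolic acetyl-CoA from citrate, was found in 29 cells with a C10 mean of 89.2 ± 144 CPM (SD, n = 46), against 34.1 ± 18.7 CPM in 10 cells (SD, n = 6). Its 10-cell libraries lay between 24.8 and 30.3 CPM except replicate 2 at 72.1 CPM. Sdhaf1, an assembly factor of succinate dehydrogenase, showed the opposite pattern: it was found in 20 cells but at a median of only 3.12 CPM, against a 10-cell mean of 30.8 CPM.

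Genes of chromatin and mitosis included Pagr1a, a subunit shared with histone H3K4 methyltransferase complexes, which was the steadiest of the set in pools at 46.8 to 85.2 CPM over the 10-cell libraries and was found in 6 of 6 libraries of 3 cells and 26 of 46 C10 cells. Aurkb, the mitotic kinase of the chromosomal passenger complex, was found in 19 C10 cells and was high where found, at a median of 190 CPM and up to 708 CPM, against a 10-cell mean of 34.0 CPM. It was the only one of 53 listed G2/M genes in the set, while 31 were seen genes. Of all genes that met the conditions in 10 cells, 1.13% were in the set, so few G2/M genes would be expected there. The linker histones H1f2 and H1f4 were found in 14 and 12 C10 cells and stayed low there. Their C10 means were 4.11 and 2.46 CPM, against 24.6 and 18.8 CPM in 10 cells. The 3-cell libraries differed between the 2 genes. H1f2 had a mean of 25.0 CPM there, near its 10-cell mean, and H1f4 2.43 CPM, near its C10 mean. Messages of replication-dependent histones mostly lack a poly(A) tail, which cDNA kits that prime on poly(A) need, and these genes have close relatives among which reads can be split. Whether either bears on these differences between groups of libraries was not tested. Hdac5, a class IIa histone deacetylase, was found in 0 of 6 libraries of 3 cells but in 16 of 46 C10 cells.

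Promoter sequence was compared because a TATA box is known to go with transcription in strong bursts. RefSeq promoters (GRCm38.p6, 250 bases before the start, on the gene's strand) matched 60 of the 77 genes. The letters TATAAA occurred in 2 of them (3.33%), H1f4 and Snhg7, against 4.67% of 5464 matched seen genes and 8.94% of all 27025 genes in the table. The other strand and variants of these letters were not searched, so these shares count the exact letters and not all TATA boxes. The promoter of H1f2, for example, lacks TATAAA but holds TATATATA. The median GC content of the 60 matched promoters of the set was 63.4%, against 61.6% in seen genes and 52.8% in the whole table. Their median number of CpG pairs was 19.5, against 18 in seen genes and 6 in the whole table. The 100 bases before the start of the pair of linker histones and of Tmem43 are shown to let the one TATAAA match be seen beside promoters of the set without it, with the match in capitals. They lie at chr13:23622559-23622658 (minus strand), chr13:23738707-23738806 (plus strand) and chr6:91473607-91473706 (plus strand) of that build, which was not shown to be the build of the counts.
H1f4: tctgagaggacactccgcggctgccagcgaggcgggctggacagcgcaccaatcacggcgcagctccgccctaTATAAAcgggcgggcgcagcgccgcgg
H1f2: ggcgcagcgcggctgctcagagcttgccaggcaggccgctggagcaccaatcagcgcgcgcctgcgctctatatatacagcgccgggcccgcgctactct
Tmem43: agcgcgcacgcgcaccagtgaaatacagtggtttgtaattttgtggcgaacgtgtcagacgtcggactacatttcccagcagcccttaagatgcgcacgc

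By type, 72 of the 77 genes code for protein and 5 are long noncoding RNAs, which were found in 6 to 15 C10 cells. The snoRNA host Snhg7 led these with 15 cells and 5033406O09Rik followed with 12. Symbol families were compared as shares of the set and of the seen genes. Cytosolic ribosomal proteins (86 seen genes), mitochondrial ribosomal proteins (75), and nuclear subunits of oxidative phosphorylation (85) had 0 genes in the set. The same held for listed S phase genes (32 seen genes), DNA repair (21), glycosylation (40), Mediator and TAF subunits (35), interferon genes (6) and clock genes (6). The set was only 1.13% of the 6826 genes that met the conditions in 10 cells. Few or no genes of the set would thus be expected in families of these sizes, and the zeros are no result about them. Solute carriers made up 3.90% of the set (3 genes) and 1.26% of seen genes, and ubiquitin ligase and protease families 5.19% (4 genes: Rnf215, Trim47, Klhl5 and Fbxo38) and 1.60%. Zinc finger proteins made up 1.30% (1 gene, Zfp524) and 1.63%, Tmem genes 2.60% (Tmem43 and Tmem129) and 1.32%, and Rab genes and regulators 2.60% and 0.889%. Predicted and RIKEN genes, among them 1700096K18Rik and B230354K17Rik, made up 6.49% and 4.39%. With 1 to 5 genes a family, these shares are counts and carry no test. The autophagy list and the chromatin modifier list each gave 1 gene (Atg7 and Hdac5).

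At the lower end of detection, Nrep and Ndst2 were each found in 3 of 46 C10 cells (exact 95% interval 1.37% to 17.9%). Ndst2, an enzyme that modifies heparan sulfate, had 0 counts in all 6 libraries of 3 cells, was found in 10 of 48 SVEC cells, and ranged from 2.57 to 32.9 CPM in 10-cell libraries. Nrep ranged from 4.09 to 62.0 CPM in 10-cell libraries and was found in 3 of the 6 libraries of 3 cells. The cilium gene Ift172, a subunit of the intraflagellar transport train, was found in 8 C10 cells. Closest above the level of 5 CPM lay Ift172 at 5.31 CPM and Hdac5 at 6.05 CPM, and closest below lay Tmem220 at 4.83 CPM and Nlgn2 at 4.56 CPM, found in 2 and 10 C10 cells. Detection in 3-cell libraries had a median of 3 of 6 for the set and 6 of 6 for seen genes. It was complete for 3 genes of the set, 3.90%, and for 64.1% of seen genes. Seen genes as a whole were at a higher level in 10 cells. In the bands from 5, 10, 20 and 50 CPM, the medians were 2, 3, 4 and 5 libraries for the set. They were 5, 5, 5 and 6 for seen genes, and 3, 3, 4 and 5 for those with a count in only 1 library of 1 cell.

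Between the lines, the genes of the set were found in a larger share of C10 than of SVEC cells in 67 of 77 cases, and the same held for 92.8% of seen genes. All these genes were required to be present in C10 pools, and SVEC libraries were shallower (median 434945 counts), so the direction is partly fixed by the choice and by depth. Levels were tested with edgeR's quasi-likelihood test over 9303 genes found in at least 25% of the cells of a line, which included 58 of the 77 and left 19 untested. Adjusted p fell under 0.05 for 11 of the 58 (19%), while 18.9% of all tested genes were called, so the share was near the background. Of the 11, 9 were higher in C10, or 15.5% of those tested against 14.4% over all genes, and 2 were higher in SVEC, where the background was 4.48%. The median log2 fold change (C10 over SVEC) was 0.86 for the set, 0.39 for seen genes and 0.35 for all tested genes. Over all genes 76.2% of calls were higher in C10, and 58.7% with scaling by library totals alone. All 11 also passed limma's test on log2(CPM + 1), which called 34.6% of all genes and 21 of the 58. In simulated single cells with 191 of 8745 genes changed, 56.3% of edgeR's calls and 9.35% of limma's were false. An adjusted p limit of 0.05 is meant to keep this share near 0.05, so edgeR's adjusted p-values were too small in the simulation. They may be too small here as well, above all those close to the limit. The share also depends on how many genes truly differ, so it does not give the share of false calls here.

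**Figure D5:**
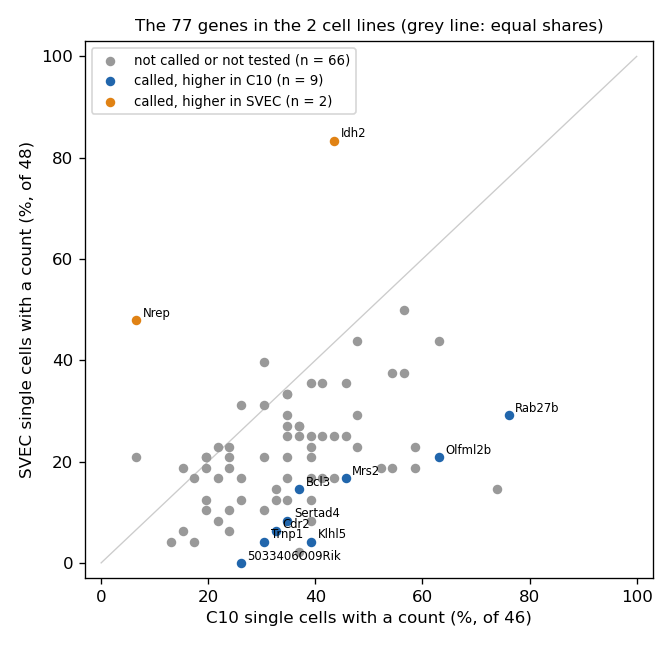
Percent of cells with a count in C10 (horizontal axis, of 46) and SVEC (vertical axis, of 48) for the 77 genes. Blue and orange points are the 9 and 2 genes called by edgeR; Idh2 and Nrep lie far above the line of equal shares, and most other genes below it.

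Idh2, the mitochondrial NADP-dependent isocitrate dehydrogenase, was one of the 2 genes called higher in SVEC. It was found in 20 of 46 C10 cells at a mean of 26.9 ± 50.8 CPM (SD, n = 46), close to its 10-cell mean of 25.8 CPM, and in 40 of 48 SVEC cells at 258 ± 264 CPM (SD, n = 48). C10 over SVEC gave a log2 fold change of -2.96 (SE 0.66; edgeR, adjusted p = 0.000258). Nrep was found in 23 SVEC cells at a mean of 200 ± 351 CPM (SD, n = 48), against a C10 mean of 5.09 ± 20.0 CPM (SD, n = 46), with a log2 fold change of -4.94 and a standard error of 0.94 (edgeR, adjusted p = 1.83e-05). Among the genes higher in C10, 5033406O09Rik had counts in 12 of 46 C10 cells, up to 215 CPM, and 0 counts in all 48 SVEC cells (edgeR, adjusted p = 3.03e-07). Rab27b was found in 14 SVEC cells at 50.4 ± 120 CPM (SD, n = 48), a log2 fold change of 1.98 with a standard error of 0.72 (edgeR, adjusted p = 0.0401). Olfml2b, an olfactomedin-domain protein of the extracellular space, was found in 29 C10 cells and 10 SVEC cells, with a log2 fold change of 2.38 and a standard error of 0.80 (edgeR, adjusted p = 0.0238). With scaling by library totals alone, Rab27b and Olfml2b no longer passed, at adjusted p of 0.0870 and 0.105 in edgeR. The others called higher in C10 were Bcl3, Cdr2, Klhl5, Mrs2, Sertad4 and Trnp1, with log2 fold changes of 2.30 to 3.25. Of these 6, 4 did not pass in DESeq2, with adjusted p of 0.0733 for Bcl3, 0.0573 for Cdr2, 0.158 for Klhl5 and 0.268 for Trnp1, and Trnp1 did not pass with library totals alone either (edgeR, adjusted p = 0.0744). Those outside the naming rule were named after their values were seen. Slc6a8, found in 7 SVEC cells, missed the threshold at a log2 fold change of 2.00 and an edgeR adjusted p of 0.0510. It also missed it with library totals alone (0.0870) and without the filter (0.0502), and passed in limma (adjusted p = 7.59e-07), in DESeq2 (0.0155), among genes found in 50% of a line (0.0288), in libraries of at least 100000 counts (0.00864) and with replicate number as a block (3.72e-06).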

How the data were processed

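Full-length cDNA was sequenced per the labels' protocols, and STAR and HTSeq are named in the submitters' processing notes. Versions, genome build, annotation and strand setting are not given in the sources used here. The deposited files hold whole-number read counts per gene symbol for 116 libraries, with 5 closing counters that name no gene (unaligned reads aside, 10.8% to 18.3% of reads in the libraries kept) and were left out. No molecular identifiers are described, so the counts are of reads and not of molecules. The exact intervals for shares of libraries cover only the sampling of libraries. Libraries under 1000 counts (2 of C10) were left out, and CPM were computed on totals over 40202 genes. The closest pair of libraries in a group differed by a chi-square of at least 3.23 per degree of freedom, so none was treated as a duplicate. RefSeq GRCm38.p6 matched 38730 symbols and gave names, overlaps and promoters.

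A gene was called found from 1 count. Thinning drew counts without replacement. C10 and SVEC were compared with edgeR 4.0.16 (TMM, quasi-likelihood test, Benjamini-Hochberg over all genes tested), with limma 3.58.1 and DESeq2 1.42.0 as alternatives, in R 4.3.3. Tests were tried on simulated counts: at a log2 change of 4, edgeR recovered 90.1% and limma 50.8% of 191 changed genes among 8745. Members, lists and tests were chosen with earlier results of these data known. Genes named were the 8 highest in 10 cells, the 8 found most often, up to 5 in each direction called between lines and found in 50% of the higher line, those beside the CPM limit and up to 3 a family. The rule also asked for genes found in no C10 cell, of which there were 0. One gene of the set is not reported here.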

Additional observations from a re-analysis of the deposited data

Results flagged for a closer look

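The levels of each gene named by rule, and the set's summed level and number of genes found, were searched for 1 library far from the others among those of 3 and of 10 cells. Of 55 groups of values 10 had such a library. The limit used gives 1 in 20 by chance, here 2.75, only for values with a normal spread. These CPM are skewed and hold many zeros, so the 10 cannot be set against that number. Of the 10, 7 were in 3-cell libraries, and 6 of these fell on replicate 10, where Idh2 stood at 81.5 CPM (others 0 to 27.5), Slc23a2 at 17.2 (others 0 to 0.381), B230354K17Rik at 72.5 (others 0 to 21.0), Rnf215 at 81.9 (others 0 to 16.8), Trim47 at 37.9 (others 0 to 4.45) and Klhl5 at 38.3 CPM (others 0 to 0.0854). That library had 10853094 counts and held 50 of the 77 genes, within the range of its group. The seventh was Ift172, at 1.57 CPM in replicate 6 and 0 in the other 5, a case that any count would flag. In the 10-cell libraries, Acly stood at 72.1 CPM in replicate 2 (others 24.8 to 30.3) and Rnf215 at 39.2 CPM in replicate 1 (others 14.1 to 23.4). Atg7 stood at 0.0740 CPM, a single count, in replicate 5 (others 19.8 to 29.2). No cause was tested.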

How the results depend on the processing

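The median share of C10 single cells with a count stayed between 24.4% (thinned to 100000 counts) and 39.1% (genes of at least 20 CPM) under all alternatives tried, and 0 genes were unfound in C10 cells under each of them. The size of the set moved to 44 genes at 20 CPM, 51 with at least 10 counts in every 10-cell library and 188 when up to 3 counts were allowed in a 1-cell library, where 25 genes were found in 50% of cells. Without the 27 genes that overlap another gene, 7 of the 11 found in 50% of cells were left. Of 2 alternatives chosen after the data were seen, C10 libraries of at least 500000 counts gave a median share of 36.6% and 13 genes found in 50% of cells, and leaving out 3-cell replicate 10 left the median at 3 libraries of 3 cells. Between the lines, limma called 3223 genes (89.8% higher in C10) and 19 of the set higher in C10. The count without the filter was 3809 genes (64.8% higher in C10). With genes found in 50% of a line, fewer genes were tested, and 3 of the set were higher in C10 and 1 in SVEC. Scaling by totals moved the median log2 fold change of all genes from 0.35 to 0.01 and the share of calls higher in C10 from 76.2% to 58.7%. Replicate number as a block gave 3107 genes (90.4% higher in C10), 21 of the set higher in C10, but same-numbered cells of the lines correlated at a mean of 0.00336 over 46 pairs, and 2 of 46 C10 cells correlated best with their own number, so they share only a number. Of the 11 called genes, 4 lost the call with DESeq2 (Bcl3, Cdr2, Klhl5 and Trnp1) and 3 with library totals. With 8 libraries of 1 cell, the number of cells limits what a zero can show.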
